A study of Mus musculus with 18 samples.

Results

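The adult and embryonic globin genes and Alas2, the red-cell enzyme of the first step of haem synthesis, were followed in dental epithelium of mouse molars. The members are 8 genes of 33665 symbols in the 3 deposited tables: the adult alpha-globin copies Hba-a1 and Hba-a2, the adult beta-globin copies Hbb-bs and Hbb-bt, the embryonic Hba-x, Hbb-y and Hbb-bh1, and Alas2. They were found by symbol in the tables. Wild-type mice were set against mice that the labels call Hmgn1-/-; Hmgn2-/- (here the double knockout). Tissue was taken on embryonic day 17 (E17) and on postnatal days 0 and 5 (P0, P5), and each of the 6 groups has 3 libraries. Dispase at 1 U/ml had separated the epithelium from the mesenchyme, per the labels' protocols. The genes Hmgn1 and Hmgn2 encode nucleosome-binding proteins of chromatin, and the series asks about their role in the maturing of ameloblasts, the enamel-forming cells. No strain, allele design, litter or pooling is given, and the labels do not tie the 3 libraries of a group to different animals, so the p-values gauge only how far these samples spread, a spread that may be technical.

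Haemoglobin of adult red cells joins alpha chains and beta chains, each around an iron-bearing haem. Mouse embryos first make primitive red cells that use the embryonic chains zeta (Hba-x), epsilon-y (Hbb-y) and beta-H1 (Hbb-bh1), and definitive red cells from the fetal liver and later the bone marrow replace them with adult chains. Red cells hold nearly all haemoglobin of the body, and the blood left in a dissected tissue carries globin RNA. In bulk tissue, fewer red cells and less globin RNA per red cell cannot be told apart.

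The globin genes lie in clusters, with the embryonic genes before the adult ones on the strand of the genes. On chromosome 11 of the mm10 build (GENCODE M21), Hba-x spans 32276400 to 32278116, Hba-a1 32283511 to 32284465 and Hba-a2 32296489 to 32297298, all on the plus strand. On chromosome 7, on the minus strand, Hbb-y spans 103851749 to 103853216, Hbb-bh1 103841637 to 103843164, Hbb-bs 103826534 to 103828096 and Hbb-bt 103812524 to 103813996. Alas2 spans 150547375 to 150570638 on chromosome X.

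The adult alpha copies are almost the same sequence, which bears on every value that tells them apart. Their coding sequences match at 428 of 429 bases, and the single substitution is C381T (Hba-a1 first, counted from the A of the start codon). It lies in the coding part, in the window shown here with the differing base in capitals.
Hba-a1: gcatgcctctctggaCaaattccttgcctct
Hba-a2: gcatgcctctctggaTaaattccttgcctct
The annotated transcripts differ more in extent than in sequence, at 699 bases for Hba-a1 and 554 for Hba-a2. Hbb-bs and Hbb-bt likewise match at 443 of 444 coding bases, with C417T as the single substitution, but their transcripts match at 580 of 626 aligned bases. The embryonic genes are less like the adult ones, with 68% coding identity between Hba-x and Hba-a1 and 74.3% between Hbb-y and Hbb-bs.

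Upstream sequences were read for 7 of the 8 members from RefSeq (GRCm38.p6), over the 250 bases before each start. Hba-a1 and Hba-a2 were identical over all 247 aligned upstream bases, so the window of Hba-a2 stands for both. It is shown with that of Hbb-y, the member that moved against the adult globins at E17, and of Alas2. Bases inside a GENCODE transcript of the gene were left off these windows as printed. Capitals mark GATA motifs, CACCC and CCAAT on either strand, and TATAA on the strand of the gene. A GATA motif here is AGATAA or its variant AGATAG, and likewise TGATAA or its variant TGATAG.
Hba-a2 (chr11:32296242-32296488, plus strand): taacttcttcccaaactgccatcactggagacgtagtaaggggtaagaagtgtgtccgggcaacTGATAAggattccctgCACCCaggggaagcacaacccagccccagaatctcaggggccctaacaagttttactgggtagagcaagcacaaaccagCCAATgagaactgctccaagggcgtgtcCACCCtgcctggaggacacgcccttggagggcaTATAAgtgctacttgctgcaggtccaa
Hbb-y (chr7:103853217-103853457, minus strand): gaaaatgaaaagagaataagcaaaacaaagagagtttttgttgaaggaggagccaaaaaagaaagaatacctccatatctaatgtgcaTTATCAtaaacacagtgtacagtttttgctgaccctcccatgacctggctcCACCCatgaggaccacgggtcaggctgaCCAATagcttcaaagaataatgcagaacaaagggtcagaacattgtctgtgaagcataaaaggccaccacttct
Alas2 (chrX:150547167-150547374, plus strand): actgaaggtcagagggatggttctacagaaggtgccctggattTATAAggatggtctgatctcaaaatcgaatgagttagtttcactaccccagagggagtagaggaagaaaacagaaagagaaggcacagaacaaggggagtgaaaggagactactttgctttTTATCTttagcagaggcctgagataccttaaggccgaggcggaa
The upstream windows of Hbb-bs and Hbb-bt matched at 178 of 243 aligned bases (73.3%). For these copies and Hbb-y, the 30 bases around CCAAT are shown next, aligned on it. Bases inside a GENCODE transcript were kept here, namely all of the Hbb-bs stretch and the end of the Hbb-bt stretch.
Hbb-bs: gagccaCACCCtggtaagggCCAATctgct
Hbb-bt: gggtaaCACCCtggcATTGGCCAATctgct
Hbb-y: aggaccacgggtcaggctgaCCAATagctt
A GATA motif was found in the windows of Hba-a1, Hba-a2, Hba-x, Hbb-bs, Hbb-y and Alas2, and in 26.5% of 32851 mouse promoters of the same length. CACCC, present in all 7 windows, occurs in 52% of promoters, CCAAT in 33.8% and TATAA in 16%. Matches were counted over all 250 bases, including those left off the printed windows. The CACCC matches of Alas2, at bases -40 to -26 from the start, lie in the part left off. These matches describe letters only, and none of them was tested as a binding site.

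Values are RPKM (reads scaled to the length of the transcript and to the mapped reads of the library) summed over the transcripts of a gene. Alignments per library ranged from 65953495 to 99967427 among E17 samples, from 74845352 to 108920337 among P0 samples and from 39209676 to 72660832 among P5 samples. Log2 fold changes compare the double knockout with wild type on the log2(RPKM + 1) scale, with standard errors and Benjamini-Hochberg adjusted p from limma over all genes tested at that stage. Over all genes the median log2 fold change was 0.25 (E17), -0.05 (P0) and -0.25 (P5), and 0.02, -0.06 and -0.03 after scaling every library to the same upper quartile ("scaled"). A gene is said to have risen or fallen only where it passed adjusted p 0.05 in one direction both before and after that scaling. Hmgn2 stood at 320.0 to 354 RPKM for wild type and 0.839 to 0.975 for the double knockout at E17, and Hmgn1 at 123 to 133 and 86.2 to 92.9. At P5 Hmgn2 stood at 166 to 183 and 5.44 to 10.4 and Hmgn1 at 179 to 189.6 and 69.8 to 72.6, and at P0 neither was analysed here. The epithelial keratins Krt5 and Krt14 averaged 1092 and 531.7 RPKM in wild type at E17, beside 1975 for the mesenchymal collagen gene Col1a1 and 1229 for Col1a2.

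At E17, adult globin and Alas2 RNA was higher in the double knockout, by 2.12 to 2.68 times in mean RPKM, while the embryonic Hbb-y was lower, at 0.236 of wild type. Hba-a1, Hba-a2, Hbb-bt and Alas2 rose, Hbb-bs passed before scaling only, and Hba-x did not pass. Hbb-y, which passed the filter on low values through the wild-type libraries alone, fell and is not counted with them. Hbb-bh1 was under the filter of 1 RPKM in at least 3 of 6 libraries, so 7 of the 8 members were tested. Of all 13728 genes tested, 5.93% rose and 3.07% fell by the same rule, while 56.3% were called higher and 3.3% lower before scaling.

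The adult alpha chain comes from Hba-a1 and Hba-a2. Hba-a1 stood at 1181, 1409.5 and 1135 RPKM across the wild-type libraries and 2264, 4739.8 and 2962 across those of the double knockout. Every double knockout library was above every wild-type library, as for 60.9% of genes, and replicate 2 was the highest. The log2 fold change of Hba-a1 was 1.36 ± 0.24 (limma, adjusted p = 0.00263, scaled 1.09, adjusted p = 0.0228). Hba-a2 stood at 1627, 1995 and 1566 RPKM among wild-type samples and 2759, 6060.2 and 3674 in the double knockout group, again with no overlap. Its log2 fold change was 1.198 ± 0.25 (limma, adjusted p = 0.00479, scaled 0.93, adjusted p = 0.0495). Since reads of these copies can hardly be assigned to one or the other, their sum was fitted as well, and it rose by 1.27 ± 0.25 (adjusted p = 0.00376, scaled 1.00, adjusted p = 0.038).

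Hbb-bs, the more abundant of the adult beta copies, was also the most abundant member at E17. It stood at 2801, 2969.6 and 2395 RPKM across the wild-type libraries and 4206, 8245 and 5395 across those of the double knockout. The groups did not overlap, and Hbb-bs ranked 12th or 13th of all genes in the wild-type libraries and between 2nd and 7th in the double knockout. Its log2 fold change of 1.08 ± 0.22 passed before scaling (limma, adjusted p = 0.0046) and missed the threshold after it (scaled 0.81, adjusted p = 0.0542). Hbb-bt, the minor copy, stood at 773, 834 and 658 RPKM against 1152, 2191 and 1466 and rose (1.04 ± 0.21, limma adjusted p = 0.00409, scaled 0.78, adjusted p = 0.0473). The summed beta copies gave 1.07 ± 0.22 on the log2 scale (adjusted p = 0.00473), and 0.81 and adjusted p = 0.0566 after scaling. The 4 adult globins together made up 1.33% to 1.65% of the summed RPKM of a library for wild type and 2.12% to 4.12% for the double knockout.

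**Figure D1:**
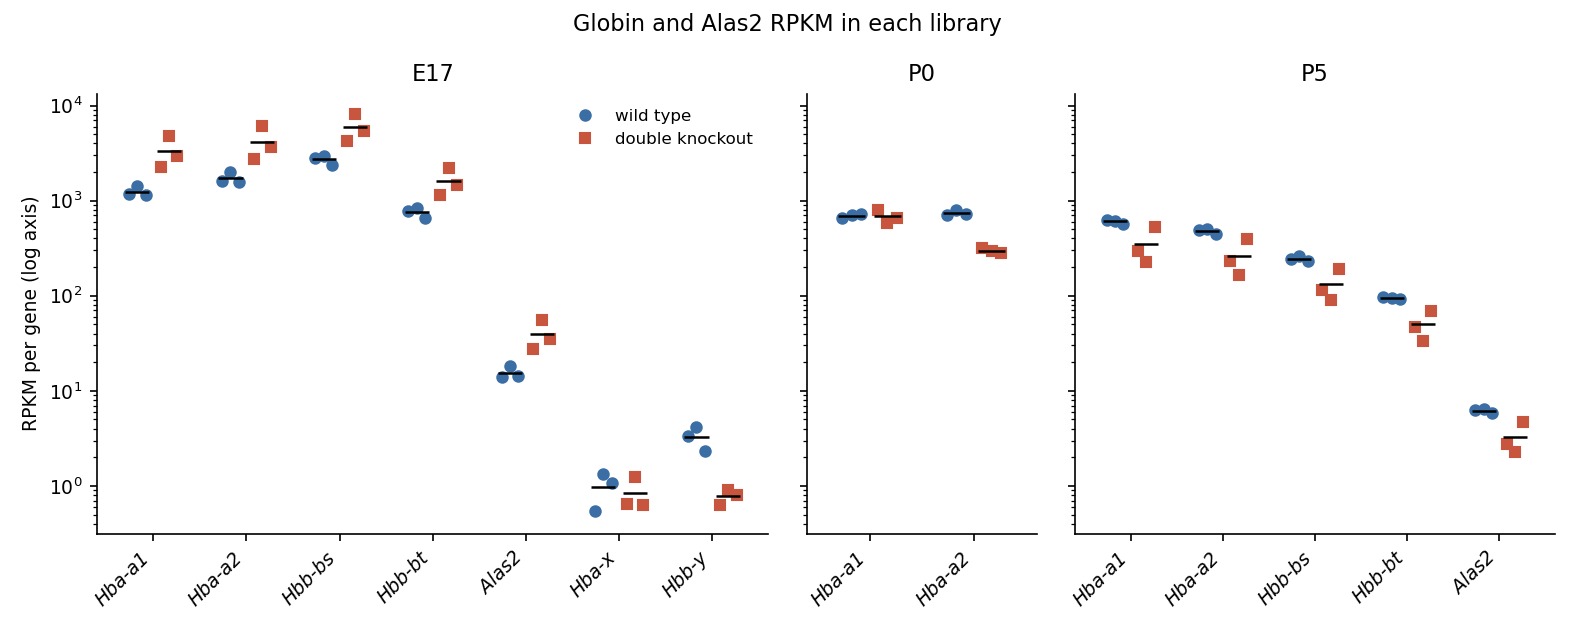
RPKM of each tested member in each library, on a log axis shared by the 3 stages, with wild type as circles, the double knockout as squares and group means as bars. At E17 the adult globins and Alas2 sit higher in every double knockout library and Hbb-y lower, at P0 Hba-a2 sits lower, and at P5 all 5 members shown sit lower.

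Alas2, which makes 5-aminolevulinate in red-cell precursors, followed the globins. It stood at 14.0, 18.1 and 14.4 RPKM among wild-type samples and 27.5, 56.2 and 35.5 in the double knockout group. The groups did not overlap, and replicate 2 was highest in both genotypes, as for the globins. The log2 fold change of 1.25 ± 0.22 passed in both scalings (limma, adjusted p = 0.00264, scaled 1.00, adjusted p = 0.0228). Per 1000 RPKM of adult globin, Alas2 came to 2.20, 2.52 and 2.51 RPKM across the wild-type libraries and 2.65, 2.65 and 2.63 across those of the double knockout. These did not overlap (exact permutation test, two-sided, p = 0.1, the smallest that 3 against 3 allows, and 0.156 adjusted over the 14 ratios tested).

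With 1 library left out, the adult calls at E17 held before scaling and varied after it. The 4 adult globins and Alas2 were called higher in every such fit on the values as deposited. After scaling, 0 were called without wild-type replicate 3 or without double knockout replicate 3, 1 without wild-type replicate 1, 2 without replicate 2 of wild type or of the double knockout, and 5 without double knockout replicate 1. With scaling and no filter on low values, 0 of them were called with all libraries.

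The embryonic beta-type gene Hbb-y went the other way. Hbb-y, which encodes epsilon-y, stood at 3.36, 4.18 and 2.32 RPKM among wild-type samples and 0.630, 0.896 and 0.797 in the double knockout group. The lowest wild-type library was well above the highest double knockout library. The log2 fold change was -1.25 ± 0.15 (limma, adjusted p = 0.000885, scaled -1.41, adjusted p = 0.00156), and 3.83% of genes had every double knockout library below every wild-type library. With no filter it was still called by limma, before scaling (adjusted p = 0.0138) and after it (adjusted p = 0.0332). Leaving out any double knockout library moved it between -1.30 and -1.19, and with a wild-type library left out it no longer passed the filter and was not tested.

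These are small numbers of reads. From the steps between low values, the number of mapped reads (in units of 1e6) was worked out as 27.9 to 41.4 per library at E17, and Hbb-y rested on about 83, 75 and 41 reads across the wild-type libraries and 12, 19 and 21 across those of the double knockout. Hbb-bh1, at 0.293, 0.173 and 0.117 RPKM against 0.109, 0.0974 and 0.0392, rested on about 7, 3 and 2 reads against 2, 2 and 1 and was not tested. Hba-x, which encodes the embryonic zeta chain, stood at 0.544, 1.33 and 1.07 RPKM among wild-type samples and 0.651, 1.23 and 0.630 in the double knockout group. Its groups overlapped and its log2 fold change was -0.10 ± 0.18 (limma, adjusted p = 0.617, 95% interval -0.50 to 0.29).

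As a share of all beta-type RPKM, Hbb-y and Hbb-bh1 made up 0.102%, 0.114% and 0.0797% in wild type. In the double knockout the share was 0.0138%, 0.00951% and 0.0122%, with no overlap. Hba-x made up 0.0194%, 0.0391% and 0.0397% of alpha-type RPKM across the wild-type libraries and 0.0130%, 0.0114% and 0.00949% across those of the double knockout. Both shares carry the rise of the adult genes in their denominator. Each gave p = 0.1 in the exact permutation test, two-sided, the smallest possible, and 0.156 after adjustment.

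**Figure D2:**
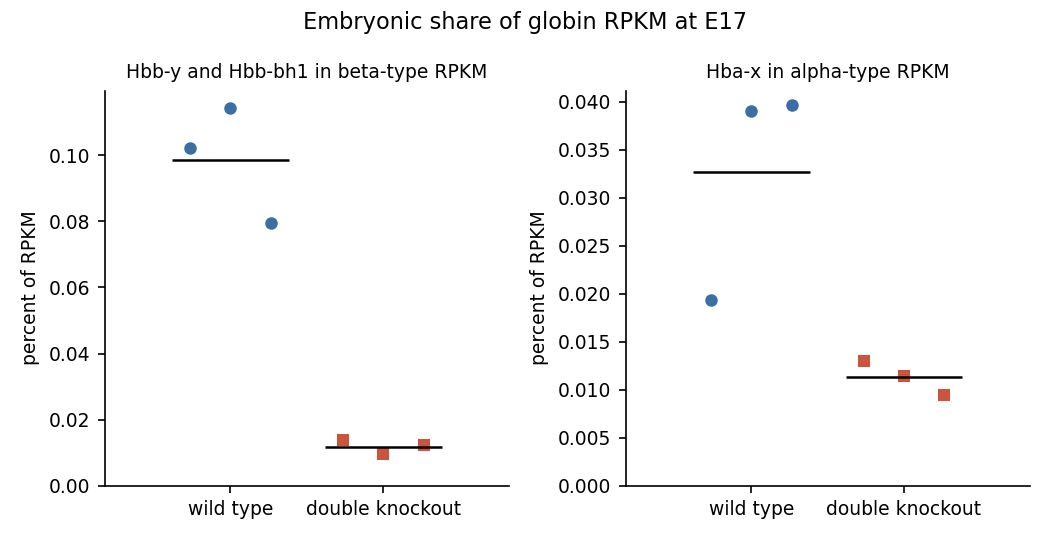
Embryonic share of globin RPKM at E17 in percent, for Hbb-y with Hbb-bh1 among beta-type genes (left) and for Hba-x among alpha-type genes (right), 1 point per library and bars at group means. All 3 double knockout libraries lie below all 3 wild-type libraries in both panels.

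The balance of the chains was also read. Adult alpha over adult beta RPKM was 0.786, 0.895 and 0.885 among wild-type samples and 0.937, 1.035 and 0.967 in the double knockout group at E17, without overlap. Hbb-bt over Hbb-bs was nearly constant, at 0.275 to 0.281 for wild type and 0.266 to 0.274 for the double knockout. Hba-a2 over Hba-a1 was 1.38, 1.42 and 1.38 across the wild-type libraries and 1.22, 1.28 and 1.24 across those of the double knockout. Each of these E17 ratios had an exact permutation p of 0.1, the smallest possible.

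At P0, Hba-a2 was lower in the double knockout and Hba-a1 was not. The P0 table covers chromosomes 1 and 10 and part of 11, so the beta-type genes and Alas2 were not analysed here at this stage. Hba-a2 stood at 707, 789 and 722 RPKM among wild-type samples and 316, 297 and 281 in the double knockout group. The double knockout libraries were close together and all far below the lowest wild-type library. Hba-a2 fell by 1.31 ± 0.08 on the log2 scale (limma, adjusted p = 2.24e-07, scaled -1.32, adjusted p = 2.57e-05), beside 21.3% of the 2062 genes tested that fell and 15.9% that rose. Before scaling 23.2% were called lower and 16.7% higher, and 29.3% had all double knockout libraries below all of wild type.

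Hba-a1 stood at 649, 707 and 729.9 RPKM across the wild-type libraries and 802, 586 and 659.6 across those of the double knockout at P0. These overlapped, and the log2 fold change was -0.04 ± 0.11 (limma, adjusted p = 0.808, 95% interval -0.27 to 0.20). The sum of the copies was 1356, 1495 and 1452 RPKM against 1118, 883 and 940.7. The sum fell by 0.55 ± 0.10 (limma, adjusted p = 0.000802, scaled -0.56, adjusted p = 0.00859, and 0.0933 with scaling and no filter). Hba-x was at 0.102, 0.172 and 0.120 RPKM in wild type and listed at 0 in the 3 double knockout libraries, and was under the filter.

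The ratio between the alpha copies carried that difference. Hba-a2 over Hba-a1 at P0 was 1.09, 1.12 and 0.989 among wild-type samples and 0.394, 0.507 and 0.426 in the double knockout group (exact permutation test, two-sided, p = 0.1, the smallest possible). The deposited values are estimates that can divide reads among transcripts, since some lie far below the value of 1 read (5.99e-42 RPKM for Hbq1a in wild-type replicate 2 at P5). Between copies that share all but 1 coding base, such a division rests on that base and on the ends of the transcripts. How reads were divided is not given in the sources used here.

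At P5 the 4 adult globins and Alas2 were lower in the double knockout, at 0.523 to 0.576 of the wild-type mean. Hbb-bs, Hbb-bt and Alas2 fell, and Hba-a1 and Hba-a2 passed before scaling only. Beside them, 25.9% of the 11423 genes tested fell by the same rule and 7.35% rose, 58.2% were called lower and 7.36% higher before scaling, and 61.8% had every double knockout library below every wild-type library. The embryonic genes were not analysed here at P5.

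Hba-a1 stood at 628, 618 and 572 RPKM across the wild-type libraries and 297, 224 and 526 across those of the double knockout, and Hba-a2 at 489, 499.8 and 447 against 232, 167 and 394.5. Double knockout replicate 3 lay just below wild type for both, and the other double knockout libraries far below. The log2 fold change of Hba-a1 was -0.89 ± 0.23 (limma, adjusted p = 0.00596, scaled -0.64, adjusted p = 0.0708). That of Hba-a2 was -0.94 ± 0.23 (limma, adjusted p = 0.00423, scaled -0.69, adjusted p = 0.0534), and that of their sum -0.91 ± 0.23 (adjusted p = 0.00506, scaled -0.66, adjusted p = 0.0631).

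Hbb-bs stood at 246, 259 and 231 RPKM among wild-type samples and 115, 89.7 and 189.8 in the double knockout group. It fell by 0.96 ± 0.20 on the log2 scale (limma, adjusted p = 0.00183, scaled -0.71, adjusted p = 0.0309). Hbb-bt stood at 97.9, 94.9 and 92.2 RPKM against 47.0, 33.6 and 69.7 and fell as well (-0.97 ± 0.19, limma adjusted p = 0.0012, scaled -0.72, adjusted p = 0.0216). In these genes too, double knockout replicate 3 was nearest to wild type. The P5 table also lists Hbb-b1 and Hbb-b2, names of the adult beta copies on the other common haplotype of laboratory mice, and Hbb-b2 has the same value as Hbb-bt in every library. The sum of all 4 beta symbols changed by -0.97 ± 0.20 (limma, adjusted p = 0.00164, scaled -0.72, adjusted p = 0.0297), an alternative added after the data were seen. Hbb-b1 kept nearly the same proportion to Hbb-bs in every library, with a log2 fold change of -0.96 for each. This sum could therefore hardly differ from that of Hbb-bs and Hbb-bt (-0.97) and is no separate check of it.

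Alas2 stood at 6.29, 6.49 and 5.83 RPKM across the wild-type libraries and 2.77, 2.28 and 4.69 across those of the double knockout at P5. The order of the double knockout libraries was that of the globins. Alas2 fell by 0.80 ± 0.16 (limma, adjusted p = 0.00149, scaled -0.60, adjusted p = 0.0246). Per 1000 RPKM of Hba-a1, Hba-a2, Hbb-bs and Hbb-bt it came to 4.31, 4.41 and 4.35 RPKM among wild-type samples and 4.003, 4.44 and 3.97 in the double knockout group, which overlapped (exact permutation p = 0.4).

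The 5 members were called lower at P5 before scaling with any 1 library left out. After scaling, 5 were called without double knockout replicate 3, 2 without wild-type replicate 1, 1 without replicate 2 of wild type or of the double knockout, and 0 without replicate 3 of wild type or without double knockout replicate 1. With scaling and no filter, 0 of the 5 were called with all libraries.

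**Figure D3:**
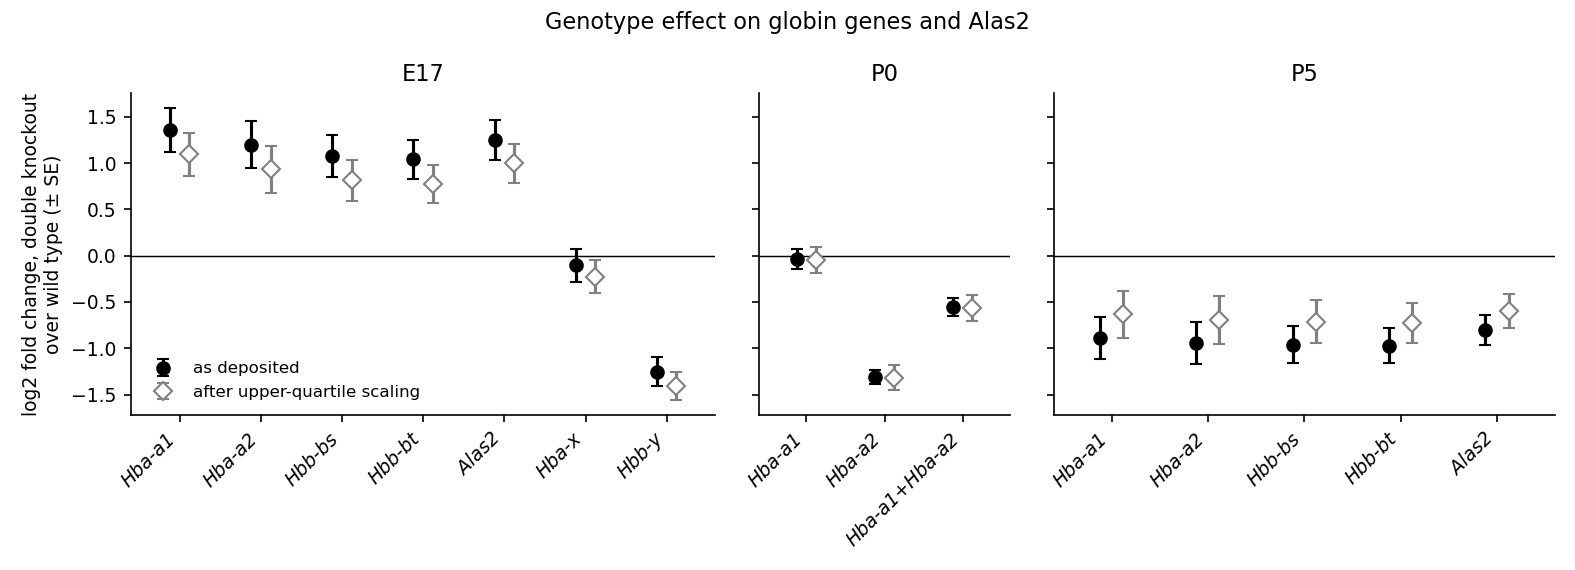
Log2 fold change of each member, double knockout over wild type, with its standard error from limma, as deposited (filled) and after upper-quartile scaling (open). The adult globins and Alas2 lie above 0 at E17 and below 0 at P5, Hbb-y lies below 0 at E17, and at P0 Hba-a2 lies at -1.31 and Hba-a1 at -0.04.

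By symbol, Hba-a2 over Hba-a1 at P5 was 0.779, 0.809 and 0.781 across the wild-type libraries and 0.783, 0.743 and 0.7498 across those of the double knockout, which overlapped (exact permutation p = 0.3). The P5 table lists each of the alpha accessions in a pair of columns, with and without a suffix. The columns without one stand before Hbq1b and those with one after it, in the chromosomal order Hba-a1, Hbq1b, Hba-a2, but the table does not state which gene copy a column stands for. The suffixed columns over the unsuffixed ones gave 0.635, 0.674 and 0.646 among wild-type samples and 0.293, 0.237 and 0.252 in the double knockout group. This ratio was formed after the values were seen, did not overlap, and had an exact permutation p of 0.1, the smallest possible.

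**Figure D4:**
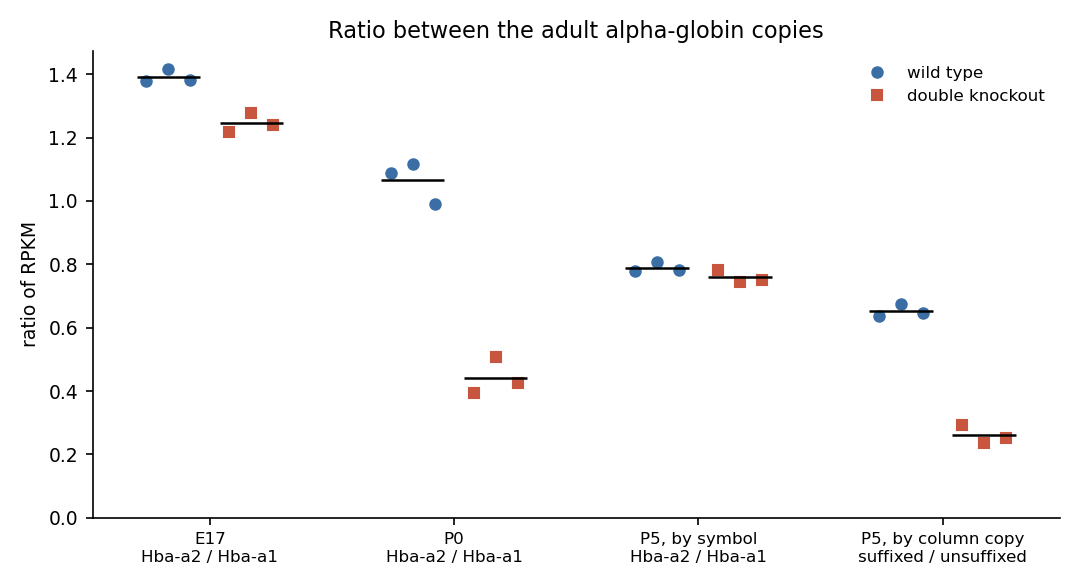
Ratio of RPKM between the adult alpha-globin copies in each library, wild type as circles, double knockout as squares and bars at group means. The ratio is lower in the double knockout at E17 and at P0, overlaps at P5 by symbol, and is lower at P5 for suffixed over unsuffixed columns.

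The genotype effect differed between E17 and P5 for the 4 adult globins and Alas2. From E17 to P5, the log2 fold change of the alpha sum changed by -2.18 ± 0.34, that of the beta sum by -2.04 ± 0.30 and that of Alas2 by -2.05 ± 0.27 (test of the difference of fitted effects with Satterthwaite degrees of freedom, adjusted p = 1.42e-05, 8.45e-06 and 4.49e-06). After scaling these were -1.66, -1.52 and -1.59 (adjusted p = 0.0016, 0.00127 and 0.000354). Before scaling 80.7% of 11049 genes passed this test, and after it 39.5%. From E17 to P0 the alpha sum changed by -1.82 ± 0.27 (adjusted p = 0.000128, with 56.8% of genes called and 37.6% after scaling), and from P0 to P5 by -0.36 ± 0.25 (adjusted p = 0.241, with 53.6% called and 47.2% after scaling). That last value rested on single libraries of the double knockout at P5, being -0.70 (adjusted p = 0.000319) without replicate 3 and -0.08 without replicate 2, and it was -0.10 (adjusted p = 0.814) after scaling. By symbol, Hba-a1 stood at -0.85 (adjusted p = 0.0103, scaled -0.59, adjusted p = 0.117, and 0.0503 without wild-type P5 replicate 1) and Hba-a2 at 0.36 (adjusted p = 0.222, and 0.00839 without double knockout P5 replicate 2). At P5 each of these symbols adds columns from both sides of Hbq1b. Changes of a single alpha symbol to P5 may therefore compare unlike quantities. The alpha sum does not rest on which symbol a column carries. It still adds RPKM over transcripts of unlike length, and how far this matters was not tested.

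The stages were normalised in separate tables, so levels across them are set side by side without a test. Transcripts at P5 also carry names of another kind than those at E17 and P0. The transcript lengths behind RPKM may therefore differ between stages. In wild type, the alpha sum averaged 2971 RPKM (E17), 1434 (P0) and 1085 (P5), and Alas2 15.5 (E17) and 6.20 (P5). In the double knockout the alpha sum averaged 7486, 981 and 614 RPKM and Alas2 39.7 and 3.25. At P5 the 4 adult globins made up 0.321% to 0.329% of summed RPKM for wild type and 0.103% to 0.246% for the double knockout, which leaves out Hbb-b1 and Hbb-b2 and so cannot be set against the share at E17.

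The other 8 enzymes of haem synthesis serve all cells, with Alas1 as the first enzyme outside red cells. The counts of these and the lists that follow stand beside 5.93% of all genes that rose and 3.07% that fell at E17, 15.9% and 21.3% at P0, and 7.35% and 25.9% at P5. At E17, 0 of 8 rose and 0 fell, with a median log2 fold change of 0.31 (scaled 0.07), and 6 were called higher before scaling. The most abundant, Urod, averaged 25.3 ± 1.99 RPKM in wild type and 32.7 ± 3.05 in the double knockout (0.36, scaled 0.10), and Alad 21.3 ± 2.48 and 25.8 ± 2.35 (0.26, scaled 0.01). At P5, 4 of 8 fell and 0 rose, with a median of -0.40 (scaled -0.17) beside -0.25 (scaled -0.03) over all genes. Among them, Uros fell by 0.79 (scaled -0.57), Cpox by 0.65 (scaled -0.42) and Alas1 by 0.53 (scaled -0.30). Fech, which inserts the iron, averaged 11.8 ± 1.07 and 12.1 ± 0.169 RPKM at P5 and passed after scaling only (0.26). At P0 Ppox alone was tested, and it did not pass (0.13).

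Of the genes of haem and iron transport, 0 of 17 rose and 0 fell at E17 (median 0.22, scaled -0.03). The ferritin chains Ftl1 (779 ± 46.5 RPKM in wild type, 1054 ± 87.4 in the double knockout) and Fth1 (597 ± 40.04 and 872 ± 59.7) had scaled values of 0.17 and 0.28. At P5, 3 of 17 fell, namely the mitochondrial glycine carrier Slc25a38 (-0.44), the transferrin receptor Tfrc (-0.40) and the iron exporter Slc40a1 (-0.55), and Glrx5 of iron-sulphur cluster assembly rose (0.26). At P0, where 4 were tested, Steap3 rose (0.86) and Slc40a1 fell by 0.87. Of the genes of haem breakdown and scavenging, 0 of 7 rose or fell at E17 (median 0.11, scaled -0.06), the most abundant being Hp, haptoglobin (0.10, scaled -0.16), and the receptor Lrp1 (0.11, scaled -0.15). Lrp1, the 1 tested at P0, did not pass (0.14), and at P5 Hmox2, a haem oxygenase, fell by 0.56 and the other 4 tested neither rose nor fell (median -0.11, scaled 0.12).

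Slc4a1, a membrane marker of red cells, was low. This gene of the anion exchanger band 3 stood at 1.09 to 1.45 RPKM for wild type and 1.78 to 2.99 for the double knockout at E17. It was called before scaling only. Of 12 genes of the red-cell membrane tested, the spectrin Sptb (0.85, scaled 0.69) and Epb41 (0.54, scaled 0.29) rose and Ank1 (-0.94, scaled -1.16) and Tmod1 (-0.74, scaled -0.93) fell. Of 12 genes of red-cell enzymes and late differentiation, Bpgm, which makes 2,3-bisphosphoglycerate, rose by 0.71 (scaled 0.46), Prdx2 by 0.62 (scaled 0.36) and Isg20 by 0.80 (scaled 0.61). At P5, 3 of 7 membrane genes fell, Mpp1 by 0.64, the glucose transporter Slc2a1 by 0.54 and Gypc by 0.73, and Add2 rose by 0.59. Of the enzyme list, 6 of 13 fell at P5 (median -0.45, scaled -0.20, beside 25.9% of all genes), among them Car2, a carbonic anhydrase, by 1.14, catalase Cat by 0.57 and Prdx2 by 0.45. At P0 Fbxo7 alone was tested, and it did not pass (-0.06).

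Of 20 factors that regulate red-cell genes, 14 passed the filter at E17, and Gata1, Klf1 and Tal1 were among those that did not. Gata1 stood at 0.0376 to 0.167 RPKM, Klf1 at 0.257 to 0.584 and Tal1 at 0.499 to 0.673 over the 6 libraries of that stage. Gfi1b, Rhag, Trim58 and Cldn13 of the red-cell lists, Gp6 of platelets and Cd3e of T cells were under 0.1 RPKM in all 6. Of the 14 regulators tested, the receptor Kit rose (0.52, scaled 0.30) and 0 fell. At P5, 4 of 10 fell, namely Bcl11a, a repressor of embryonic globin genes, by 0.79 (scaled -0.55), Kit by 0.53, Foxo3 by 0.51 and E2f2 by 0.62. At P0, 1 of 4 fell, Myb by 0.40. In the 5 markers of proliferating cells, Ccnb1 rose at E17 (0.48, scaled 0.23), Cdk1 fell by 0.91 at P0 as the 1 tested, and all 5 fell at P5, among them Top2a by 0.96, Mki67 by 1.02 and Cdk1 by 0.79, and Ccnb1 fell by 1.0465.

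Markers of other cells in the tissue were also read. Of 16 endothelial genes, Ramp2 rose at E17 (0.61, scaled 0.35), Sox17 fell by 0.62 at P0 as the 1 tested, and at P5 Tie1 and Eng fell by 0.50 and 0.56. The endothelial sum was 167 to 196 RPKM for wild type and 189.7 to 205 for the double knockout at E17, and 111 to 122 and 82.5 to 107 at P5. The median log2 fold change of the endothelial genes was 0.05 (scaled -0.17) at E17 and -0.36 (scaled -0.15) at P5. Cdh5 and Tie1 were called lower at E17 after scaling only (scaled -0.36 and -0.30). Of macrophage and leukocyte genes, 1 of 18 rose at E17, Tyrobp by 0.47 (scaled 0.21), and 2 of 3 fell at P0, Fcer1g by 0.43 and Cd68 by 0.40. At P5, 6 of 14 fell, among them Lyz2 by 0.48, Csf1r by 0.60, Cx3cr1 by 0.49 and Tyrobp by 0.88. Their sum, before scaling, was at most 224 RPKM in wild type and at least 248 in the double knockout at E17, and 106 to 129.9 and 71.2 to 93.8 at P5. Of all genes, 60.9% had every double knockout library above every wild-type library at E17, and 61.8% had every one below at P5. The median log2 fold change of the leukocyte genes was 0.31 (scaled 0.08) at E17 and -0.43 (scaled -0.20) at P5. The part of blood vessels or of leukocytes in the globin result was not tested.

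Of 12 mesenchymal genes, 4 fell and 1 rose at E17, among them Col1a2 (-0.94), Col1a1 (-1.15) and Postn (-0.43), which fell, and Twist2, which rose by 0.80. At P0, 2 of 6 rose, Col1a1 by 2.12 and Dcn by 1.59, and 3 fell, among them Twist2 by 1.29 and Col3a1 by 1.09. At P5, 7 fell, among them Vim by 0.92, Lum by 1.57, Dcn by 1.55 and Twist2 by 1.15. The mesenchymal sum was 4434 to 4830 RPKM for wild type and 2769 to 2958 for the double knockout at E17, and 2084 to 2278 and 898 to 1285 at P5. At P0, over the 6 genes in the table, it was 721 to 858 and 2156 to 3017. Within these sums, Col1a1 alone averaged 1975 RPKM in wild type and 896 in the double knockout at E17, and 511 and 2263 at P0. The median log2 fold change of the tested mesenchymal genes was -0.07 at E17 (scaled -0.33), -0.41 at P0 (scaled -0.42) and -0.70 at P5 (scaled -0.46). Of 10 genes of dental epithelium, 5 rose at E17, among them Sp6 (1.79), Cldn1 (0.90), Epcam (0.77) and Trp63 (0.76). Perp rose by 0.58 at P0 as the 1 tested, and at P5 Cldn1 and Perp rose and Epcam fell by 0.50. Of 3 platelet and megakaryocyte genes tested at E17 none passed, with Pf4 at 17.2 ± 2.70 and 18.9 ± 0.490 RPKM and Itga2b at -0.04 on the log2 scale, and at P5 Pf4 fell by 0.71. Their part in the globin result was not tested.

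Alas2 also tracked the globins among libraries of the same group. The log2 values of each gene were centred on their group means over the 12 libraries of E17 and P5, and their Pearson correlation with adult globin was taken as a description for 11049 genes. Beyond the globins themselves, the highest included Dxo (0.972), Alas2 (0.969), Nosip (0.959), Sirt1 (0.951), Deaf1 (0.948), Polk (0.94), Trmt1 (0.938), Wnt10b (0.93) and Mmp13 (0.928). Of these, Alas2 and Mmp13, a collagenase, had an SD of 0.28 and 0.27 on the log2 scale around their group means, the globins 0.294 to 0.356, and the others 0.053 to 0.128. The points share their libraries and depth, and groups contribute 3 libraries each.

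**Figure D5:**
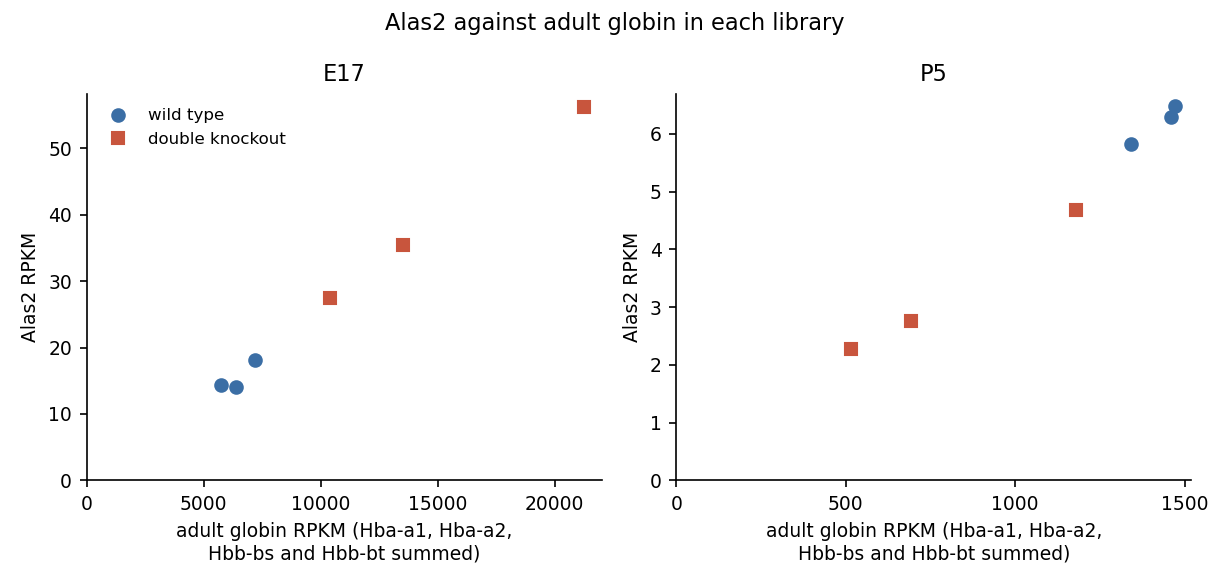
Alas2 RPKM against the summed RPKM of Hba-a1, Hba-a2, Hbb-bs and Hbb-bt in each library at E17 (left) and P5 (right). In the double knockout the libraries spread widely, with replicate 2 highest at E17 and replicate 3 highest at P5 on both axes, and the wild-type libraries lie close together.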

How the data were processed

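RNA depleted of ribosomal RNA was sequenced in 18 libraries, 3 for each genotype and stage. Per the submitters' processing notes, the authors used Partek (no version given) on mm10. Aligner, annotation and strand setting were not given in the sources used here. Transcript names at P5 are of the RefSeq kind, and those at E17 and P0 are of another kind. The deposited values are RPKM per transcript. No source states this unit, and it was read from the values. At E17, 84.0% to 85.5% of low values of genes with a single transcript lay within 0.1 of a whole number of reads. The number of mapped reads was chosen to make this share largest, so the share alone does not tell RPKM from other length-scaled units. The summed values of a library were not fixed, ranging from 431317.4 to 518244.7 at E17. The deposited number of alignments per library is a column of its own.

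RPKM was summed per symbol. Genes at 1 RPKM or more in at least 3 of 6 libraries were fitted with limma 3.58.1 in R 4.3.3 (trend, two-sided) on log2(RPKM + 1), each stage alone, and tested on simulated data. Ratios were compared with exact permutation tests (SciPy 1.17.1), whose smallest p for 3 against 3 is 0.1. Sequences came from RefSeq and GENCODE. The members and gene lists were chosen with earlier results of these data known. All members are named. Some genes that the naming rule picks are not reported here. Of each other list, genes that passed in both scalings were named, up to 4 with the smallest p, or the 2 with the highest mean where none did, and Hmgn1, Hmgn2 and the 10 genes most like adult globin. Slc4a1, Gata1, Klf1, Tal1, Krt5, Krt14, Fech and other names outside that rule were picked with their values in view. As alternatives, the fits were repeated with upper-quartile and non-globin scaling, no filter, a pseudocount of 0.1, no trend, a replicate block, each library left out, and the highest transcript only.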

Additional observations from a re-analysis of the deposited data

Results flagged for a closer look

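The genotype effect differed between stages, by the test of the difference itself, before and after upper-quartile scaling. From E17 to P5 the log2 fold change moved by -2.24 for Hba-a1, -2.14 for Hba-a2, -2.18 for their sum, -2.04 for Hbb-bs, -2.01 for Hbb-bt, -2.04 for their sum and -2.05 for Alas2. From E17 to P0 it moved by -1.39 for Hba-a1, -2.5 for Hba-a2 and -1.82 for their sum. These rest on tables that were normalised separately, and 80.7% (E17 to P5) and 56.8% (E17 to P0) of all genes tested passed the same test before scaling. The single alpha symbols may stand for unlike quantities at E17 and P5, since each P5 symbol adds columns from both sides of Hbq1b. With groups of 3, no single library was tested as standing apart.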

How the results depend on the processing

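With a pseudocount of 0.1 and limma without trend, no result changed its direction or its side of the threshold, and no member or sum did so when libraries were scaled to the sum of non-globin genes. Replicate numbers gave no clear sign of pairing. Deviations of same-numbered libraries correlated at -0.222 to 0.27, and those of differently numbered ones at -0.417 to 0.518. With groups of 3 this cannot exclude pairing. On the values as deposited, the replicate block changed no call of a member or a sum, and genes called were 7671 (E17), 842 (P0) and 7103 (P5) with it and 8188, 823 and 7486 without it. At E17 genes called numbered 1664 after upper-quartile scaling, 637 with no filter as well, 3409 after scaling to non-globin genes and 1245 with both upper-quartile scaling and the replicate block, which gave 4482 at P5 beside 7486. Members called higher at E17 numbered 5, and 3 with no filter or with upper-quartile scaling and the replicate block, and those called lower at P5 numbered 5, and 3 after upper-quartile scaling. Losing the threshold at E17 were the alpha sum with no filter (1.27, adjusted p = 0.0715) and the beta sum with no filter (1.07, adjusted p = 0.0972), after upper-quartile scaling (0.81) and with the replicate block added to it (0.81), and at P5 the alpha sum after that scaling (-0.66) and with no filter (-0.91). With no filter more genes were tested. Upper-quartile scaling with no filter called 0 adult members at either stage, and these values missed the threshold under it: 1.00 (alpha sum), 0.81 (beta sum) and 0.996 (Alas2) at E17, -0.56 (alpha sum) at P0, and -0.66, -0.72 and -0.60 (alpha sum, beta sum, Alas2) at P5. With the highest transcript alone, the P5 log2 differences became 0.45 for alpha over beta (0.45 with all 4 beta symbols) and -0.24 for Alas2 per globin, and that of the Hba-x share at P0 -0.0052 percentage points; at P5 each alpha accession has a pair of columns, of which this keeps 1.

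The block or the missing filter added to upper-quartile scaling, the left-out libraries after that scaling, the suffixed columns, the sum of 4 beta symbols and the counts of members called were chosen after seeing the data. With 1 library left out in turn, as deposited and after upper-quartile scaling, genes called ranged from 650 to 9183 at E17 and 3938 to 6856 at P5, and members called from 0 to 5 at both. At E17 the alpha sum ranged from 0.72 to 1.52, the beta sum from 0.56 to 1.29 and Alas2 from 0.73 to 1.47. At P5 they ranged from -1.25 to -0.37, -1.26 to -0.46 and -1.03 to -0.42. Hba-a1 at P0 ranged from -0.1912 to 0.0666 and was never called. Log2 differences of ratios ranged from -1.37 to -1.19 for Hba-a2 over Hba-a1 at P0, and at P5 from -1.41 to -1.26 for suffixed over unsuffixed columns, -0.0657 to 0.0113 for Hbb-bt over Hbb-bs, 0.0131 to 0.0939 for alpha over Hbb-bs and Hbb-bt, 0.0106 to 0.0902 for alpha over 4 beta symbols and -0.127 to -0.0468 for Alas2 per globin. Apart from the counts noted, the cause was not tested. Depth limits Hbb-bh1, which rests on few reads, and also Hbb-y, at about 12, 19 and 21 reads in the double knockout at E17. Hba-x was low as well, at 0.544 to 1.33 RPKM at E17, and its reads were not worked out.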

Other observations

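Other globins were read beside the members. Cygb, cytoglobin, a globin of fibroblasts and other cells, stood at 33.4, 33.0 and 29.9 RPKM across the wild-type libraries and 40.6, 36.1 and 36.0 across those of the double knockout at P5 and rose (0.22 ± 0.07, limma adjusted p = 0.0158, scaled 0.46), where the adult red-cell globins were lower. At E17 it stood at 6.92 to 7.90 and 9.71 to 11.3 RPKM and passed before scaling only. Mb, the muscle globin, stood at 6.24 to 8.17 RPKM for wild type and 4.66 to 7.74 for the double knockout at E17, with overlap. The theta-like genes Hbq1a and Hbq1b were under 1 RPKM in every library of every stage.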
